A study of Mus musculus with 36 samples.

Results

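Cerebellins, neurexophilins and delta glutamate receptors form a set of synaptic organizers, and 8 of their genes were described here in single neurons of the mouse midbrain: Cbln1, Cbln2, Cbln3, Cbln4, Grid1, Nxph1, Nxph3 and Nxph4. They were taken by name from a table of 55359 genes, of which 31169 were above 0 in at least 1 cell. No cut on a measured value entered the choice of these 8, though earlier results of these data were known when they were chosen. Each of the 36 libraries was 1 neuron, and each of the 18 clones, named by a letter, gave 2 sequenced sibling neurons. A clone is the progeny of a single radial glia progenitor, labelled on embryonic day 12 by MADM, a method in which recombination between chromosomes colours the daughters of a dividing cell. All animals carried the genotype element written M11GTTG. In 11 clones (22 cells) it was combined with Fz10-CreER and in 7 clones (14 cells) with Sox2-CreER, both inducible recombinases named for the gene whose regulatory sequence drives them. The tissue labels gave 22 cells from sSC, 12 from dSC and 2 from PAG, read here as superficial superior colliculus, deep superior colliculus and periaqueductal grey. The mice were of a mixed C57/Bl6, FVB and CD1 background. The labels give ages for experiments only as a range (E9.5 to P30) and name no animal for a cell, so several clones may share an animal.

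Cerebellins are secreted proteins of the C1q family. Released into the synaptic cleft, they bind neurexins on the presynaptic side and delta glutamate receptors on the postsynaptic side, and so tie both membranes together. Grid1 codes for GluD1, a delta receptor that belongs to the glutamate receptor family by sequence and is known above all as an adhesion receptor for cerebellins. Neurexophilins are secreted glycoproteins that bind alpha-neurexins tightly at another of their domains. Cbln1 is best known from the synapse between parallel fibres and Purkinje cells of the cerebellum. In the superior colliculus, retinal and cortical inputs meet local excitatory and inhibitory neurons, and these organizers are among the molecules known to specify such synapses.

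Members of each family are related in sequence, which bears on how reads are assigned to them. In the coding sequences of GENCODE M21 (mouse build GRCm38), the cerebellins were identical to each other at 64.3% (Cbln3 and Cbln4) to 73.7% (Cbln1 and Cbln2) of aligned bases. The neurexophilins ranged from 60.8% (Nxph1 and Nxph4) to 66.4% (Nxph1 and Nxph3). The longest run of identical bases between any of these 9 pairs was 24 bases. No pair thus shared a longer stretch of identical coding sequence. The stretches below show this for 3 pairs, each within a coding exon, written 5′ to 3′ on the coding strand, with the longest shared run of the pair in capitals. They are Cbln1 at chr8:87472116-87472177 (minus strand) and Cbln4 at chr2:172042165-172042226 (minus strand). Nxph1 lies at chr6:9247361-9247425 (plus strand) beside Nxph3 at chr11:95511249-95511313 (minus strand). The last pair is Nxph3 at chr11:95510847-95510918 (minus strand) and Nxph4 at chr10:127526119-127526190 (minus strand), which hold the 24-base run.
Cbln1, stretch shared with Cbln4: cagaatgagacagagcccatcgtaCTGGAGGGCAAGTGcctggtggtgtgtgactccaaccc
Cbln4, stretch shared with Cbln1: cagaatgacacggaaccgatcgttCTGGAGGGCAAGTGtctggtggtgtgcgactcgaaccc
Nxph1, stretch shared with Nxph3: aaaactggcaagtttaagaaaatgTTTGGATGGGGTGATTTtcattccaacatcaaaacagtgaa
Nxph3, stretch shared with Nxph1: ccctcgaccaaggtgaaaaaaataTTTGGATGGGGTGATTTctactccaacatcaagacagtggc
Nxph3, stretch shared with Nxph4: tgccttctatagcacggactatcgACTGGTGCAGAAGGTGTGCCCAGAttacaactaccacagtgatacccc
Nxph4, stretch shared with Nxph3: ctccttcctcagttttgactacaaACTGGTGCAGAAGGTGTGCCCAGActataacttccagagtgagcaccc

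Values are the deposited signal, by the authors' name a TPM over exons plus introns, which sums to 2000000 in every cell. It keeps no read depth, so the number of genes at 1 or more stands in for library quality. That number ran from 2661 (cell B.2, sSC) and 6180 (cell H.1, sSC) to 16769 (cell Q.1, sSC), with a median of 12058. All 36 cells had the neuronal genes Snap25, Syt1, Rbfox3, Nefl and Map2 at 1 or more. The neuronal genes Stmn2 and Tubb3 were at 1 or more in 35 and 33 cells. All 36 cells also had the myelin genes Mbp (median 1105) and Mobp (median 384) at 1 or more. The sum of 7 microglial markers ran from 85.4 to 9029 and that of 7 astrocyte markers from 78.2 to 2213. The sum of 4 endothelial markers had a median of 3.01 and reached 225.9. Of these, Cldn5 was at 1 or more in 12 cells and Cdh5 in 3. At a value of 100, 11 cells had Slc17a6, the vesicular glutamate transporter, without Gad1 or Gad2, the enzymes that make GABA, and are called Slc17a6-high. In 19 cells Gad1 or Gad2 was at 100 or more without Slc17a6, and these are called Gad-high. A further 5 cells had both and 1 (C.1, dSC) had neither.

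Most neurons carried a mixture of these organizers. Of the 36 cells, 30 had a cerebellin at 10 or more: 16 had 1 cerebellin, 10 had 2, 4 had 3 and 0 had all 4. For the neurexophilins, 21 cells had 1 at 10 or more, 3 had 2, and 12 had 0. The median cell had 4 of the 8 members at 1 or more. Cell Q.1, with the most genes detected, had all 8, whereas B.2 and H.1, with the fewest, had 0. Over the 36 cells, the number of members at 1 or more correlated with the number of genes detected at r = 0.81 (Spearman 0.73), and both counts come from the same library. A member listed at 0 can therefore be a transcript that was not captured.

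**Figure D1:**
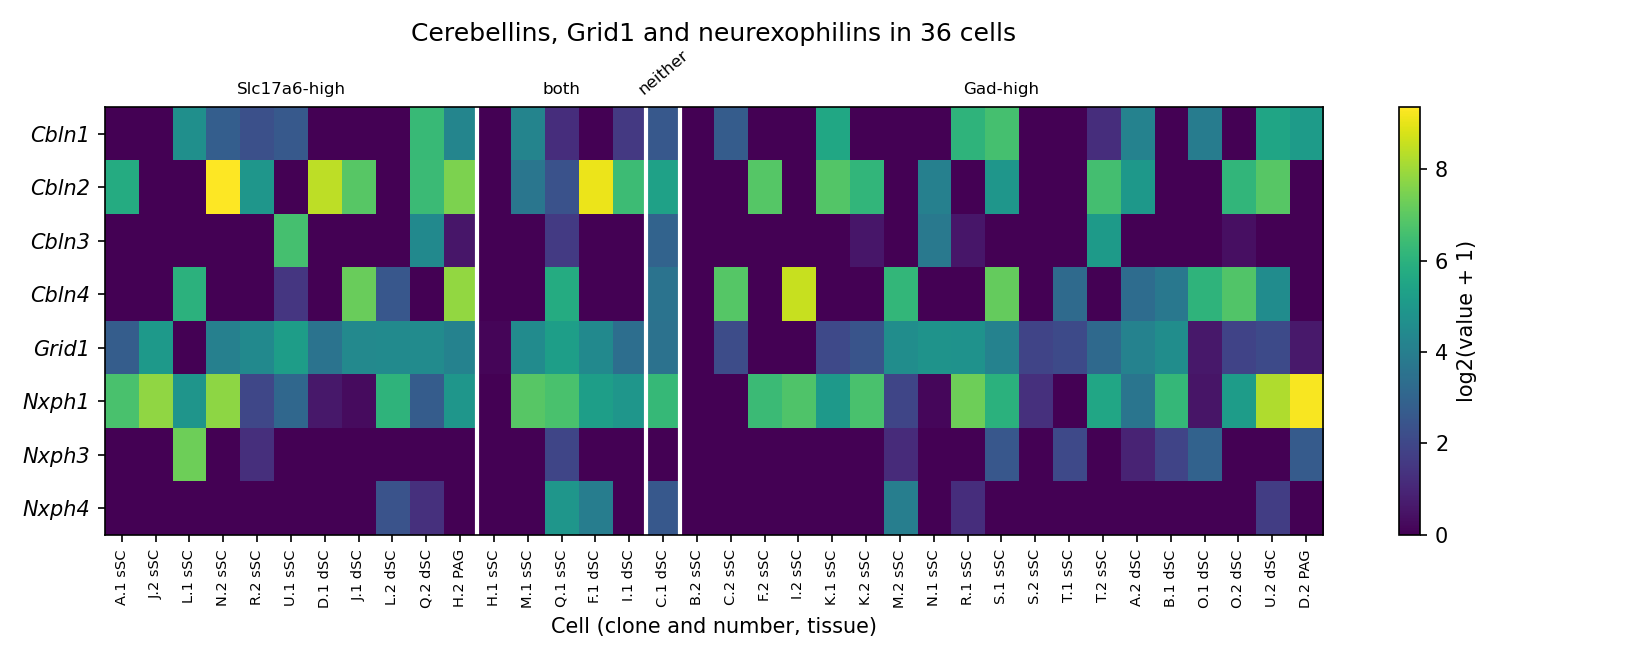
Level of each member (rows) in each of the 36 cells (columns), as log2(value + 1) in colour. Cells are grouped by their Slc17a6 and Gad1 or Gad2 levels and labelled by clone, cell number and tissue. Cbln2 and Nxph1 reach high values in every tissue, and H.1 and B.2 are dark throughout.

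Cbln2 was the cerebellin at 10 or more in most cells (20 of 36) and reached the highest value of the family. In 21 cells it had a value of 1 or more, with a median of 22.6 over all cells. The values were 654 in N.2 (sSC), 545 in F.1 (dSC), 339 in D.1 (dSC) and 180 in H.2 (PAG), and all of these cells had Slc17a6 at 100 or more. The other 4 cells at 100 or more were U.2 (121), J.1 (119), F.2 (117) and K.1 (114). Of these, J.1 was Slc17a6-high and the rest were Gad-high. Values were either at 10 or more, or at 0, in 35 of the 36 cells, with Q.1 at 4.13 between them.

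Cbln4 had a patchier pattern. Values were at 1 or more in 17 cells and at 0 in the remaining 19. The 6 cells at 100 or more were I.2 (379, sSC), H.2 (227, PAG), J.1 (148, dSC), S.1 (139, sSC), C.2 (117, sSC) and O.2 (112, dSC). Of these, I.2, S.1, C.2 and O.2 were Gad-high and H.2 and J.1 were Slc17a6-high. Cbln2 and Cbln4 were both at 10 or more in 6 cells, and both at 100 or more in H.2 and J.1. Their correlation on the log2 scale was weak (r = -0.17, 36 cells).

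Cbln1 stayed below 100 in all cells, with a highest value of 96.4 (S.1, sSC), then 77.4 (Q.2, dSC) and 67.5 (R.1, sSC). Of the 36 cells, 19 had Cbln1 at 1 or more and 11 at 10 or more. Both PAG cells had it, at 33.9 and 18.4. The long noncoding gene Gm2694 overlaps Cbln1 on the opposite strand in GENCODE M21, and the use of strand in the counting is not given in the sources used here. Among 14868 genes, Gm2694 had the pattern most like Cbln1, with r = 0.84 over the 36 cells. In the 11 cells with Cbln1 at 10 or more, the Gm2694 value was 0.48 to 1.32 times the Cbln1 value, with a median of 1.06. Of the 17 cells with Cbln1 at 0, 11 also had Gm2694 at 0 and 5 had it at 1 or more, up to 18.3. F.1 (18.3), T.1 (12.1) and N.1 (11.9) were the highest of these. Without strand, reads from the bases that both genes cover cannot be told apart.

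**Figure D2:**
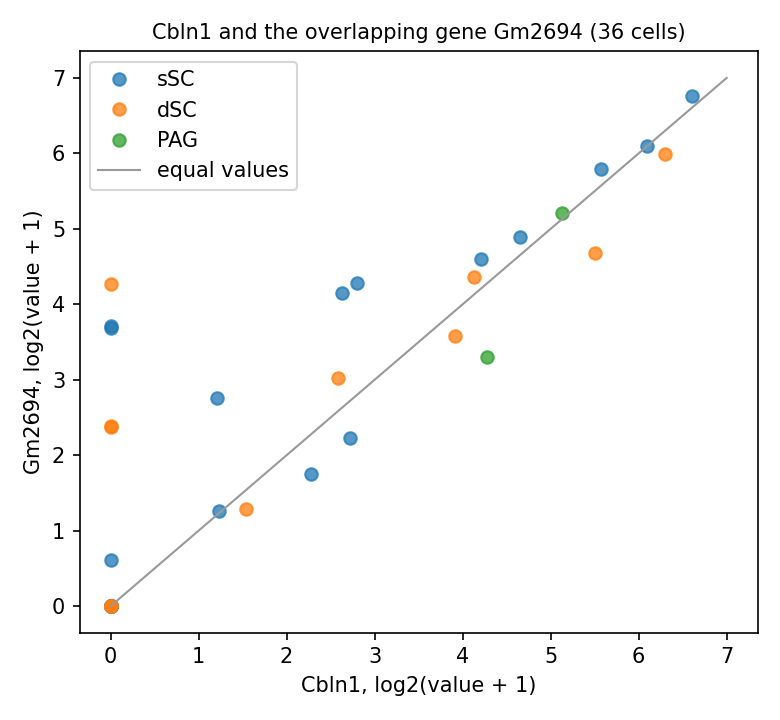
Cbln1 (horizontal) against the overlapping gene Gm2694 (vertical) in 36 cells, both as log2(value + 1), coloured by tissue. The line marks equal values. Cells with Cbln1 at 10 or more lie near it (0.48 to 1.32 times), and 5 cells have Gm2694 at 1 or more with Cbln1 at 0.

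Cbln3, known from cerebellar granule cells where it is secreted together with Cbln1, was listed at 0 in 26 cells. Its values at 1 or more were 96.6 (U.1, sSC), 33.2 (T.2, sSC), 20.9 (Q.2, dSC), 12.8 (N.1, sSC), 6.80 (C.1, dSC) and 2.05 (Q.1, sSC). These 6 cells came from 6 different libraries in 5 clones and both collicular tissues, with Q.1 and Q.2 being siblings. Cbln1 was at 1 or more in 5 of them, but both genes were at 10 or more only in Q.2.

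Grid1, the receptor of the set, was the member found in most cells. It was at 1 or more in 29 of the 36 and at 10 or more in 19, yet its highest value was 36.99 (Q.1). Its level followed library quality more closely than that of the other members: r with the number of genes detected was 0.67 for Grid1 and between -0.01 and 0.38 for the rest (36 cells). By Spearman the gap was smaller, with 0.62 for Grid1, 0.54 for Cbln3 and 0.11 to 0.36 for the rest. Cells with a cerebellin at 10 or more had Grid1 at 10 or more in 17 of 30 cases. The 3 genes most like Grid1 were Hivep3 (r = 0.79), Myh10 (0.79) and Supt6 (0.78), each at 1 or more in at least 31 cells.

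Nxph1 was the main neurexophilin and was at 1 or more in 28 cells, at 10 or more in 23 and at 100 or more in 10. The highest values were 615 (D.2, PAG), 298 (U.2, dSC), 220 (J.2, sSC), 215 (N.2, sSC) and 156 (R.1, sSC). D.2, U.2 and J.2, the highest 3, belonged to 3 different tissues. Gad-high cells (D.2, U.2 and R.1) and Slc17a6-high cells (J.2 and N.2) were both among the top values. A cerebellin and Nxph1 were both at 10 or more in 21 cells.

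Nxph3 and Nxph4 were rare. Nxph3 was at 1 or more in 9 cells, of which L.1 (sSC, Slc17a6-high) had 155 and the rest at most 6.78. Nxph4 was at 1 or more in 8 cells, with 28.95 in Q.1 (sSC), 15.2 in M.2 (sSC), 14.6 in F.1 (dSC) and the others below 5. None of the PAG cells had Nxph4 above 0. The 2 genes were both at 1 or more in only 2 cells.

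The first comparison asked whether the organizers differ between the superficial and the deep colliculus. Cbln2 had the largest difference of the members, with higher values in dSC, and this did not pass the test across all genes. Its values ran from 0 to 654 with a median of 2.06 over the 22 sSC cells, and from 0 to 545 with a median of 76.1 over the 12 dSC cells. A value of 1 or more was seen in 11 sSC and 9 dSC cells, so the ranges overlapped widely. Over clone means, log2(value + 1) of Cbln2 averaged 2.39 ± 2.68 (SD, n = 16) for sSC, compared with 5.23 ± 3.05 (SD, n = 11) for dSC. The difference, sSC minus dSC, was -2.84 (SE 1.03, 95% interval -4.93 to -0.76). The limma p was 0.00886 before and 0.933 after Benjamini-Hochberg adjustment over 14613 genes. Among 9 clones sampled in both tissues, the dSC sibling was higher in 6, lower in 1 and equal (both at 0) in 2. The fit that blocked on clone gave -3.46, with an adjusted limma p of 0.457.

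The other members differed less between these tissues. Of the 8, 5 passed the filter of a value of 1 or more in 25% of the cells, and 0 were called by limma. All genes together gave 0% called, with 754 at an unadjusted p under 0.05. The members had 1 such p, that of Cbln2. All 5 differences were negative (lower in sSC), with a median of -0.55 against -0.31 over all genes tested, so the middle of the all-gene distribution also lay below 0. Quantile normalization moved the all-gene median to -0.14, and genes detected as covariate moved it to 0.07. Grid1 ran from 0 to 36.99 (median 6.96) in sSC and from 0.53 to 23.1 (median 13.8) in dSC, a difference of -1.05 (SE 0.74, adjusted p = 0.971, limma). It was higher in dSC in 6 of the 9 clones. For Cbln4 the median was 0 in sSC and 9.96 in dSC, and its difference of -0.55 (SE 1.02) turned positive when clone was a block (0.42). Cbln1 differed by -0.40 (SE 0.76; -0.98 when clone was a block) and Nxph1 by -0.05 (SE 0.94). Nxph1 had medians of 39.2 in sSC and 32.03 in dSC. The 95% interval for Nxph1, -1.95 to 1.85, leaves differences of either sign possible. Cbln3, Nxph3 and Nxph4 were below the filter and were not tested.

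The number of genes detected was similar in the tissues, with medians of 11863 (2661 to 16769) in sSC and 12202 (7095 to 15472) in dSC. Glial markers had higher medians in dSC, with overlapping ranges. The summed astrocyte markers had medians of 658 (78.2 to 1532) in sSC and 1169 (382 to 2213) in dSC. The summed microglial markers had medians of 979 and 1977, and the endothelial ones medians of 1.59 and 13.6. Their part in the Cbln2 and Grid1 differences was not tested, but with the number of genes detected as a covariate the Cbln2 difference was -2.52 and that of Grid1 was -0.47.

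**Figure D3:**
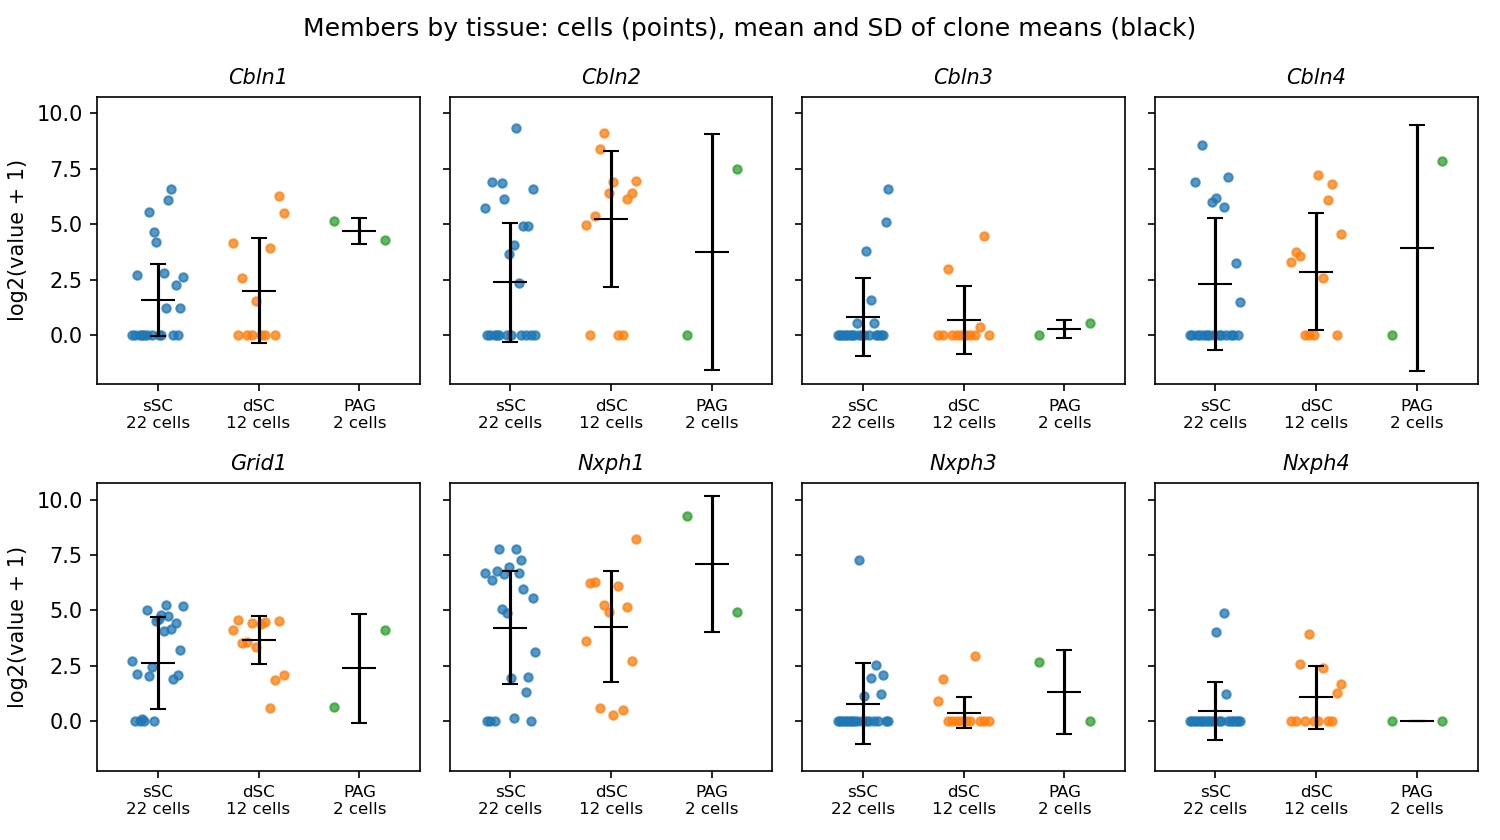
The 8 members by tissue, as log2(value + 1). Points are cells, and the black bar and whiskers are the mean and SD of clone means (16 sSC, 11 dSC and 2 PAG clones). Cbln2 has most of its dSC cells high (9 of 12 at 10 or more) and sSC cells split between 0 and high values.

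The next comparison set the members beside transmitter genes. Grid1 and Cbln2 had higher levels in Slc17a6-high cells, and neither passed the test across all genes. Grid1 ran from 0 to 35.5 with a median of 19.9 in the 11 Slc17a6-high cells, and from 0 to 26.96 with a median of 3.33 in the 19 Gad-high cells. It was at 10 or more in 9 of the former and 6 of the latter, so the sets overlapped. Over clone means the levels were 3.96 ± 0.95 (SD, n = 9) and 2.48 ± 1.66 (SD, n = 14). The difference was 1.48 (SE 0.71, 95% interval 0.04 to 2.92), with a limma p of 0.0446 before and 0.999 after adjustment over 14356 genes. The number of genes detected was similar in the sets, with medians of 11898 and 11828. Among 5 clones sampled in both sets, Grid1 was higher in the Slc17a6-high sibling in 2 and lower in 3. The fit that blocked on clone gave 0.71 (SE 1.17).

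For Cbln2, values in Slc17a6-high cells ran from 0 to 654 (median 52.4, 7 of 11 cells at 10 or more). In Gad-high cells they ran from 0 to 121 (median 0, 9 of 19 cells). The ranges overlapped, and the values above 121 were all in cells with Slc17a6 at 100 or more. Clone means were 5.08 ± 3.38 (SD, n = 9) and 2.73 ± 2.79 (SD, n = 14). The difference of 2.36 (SE 1.17, interval -0.03 to 4.74) had a limma p of 0.0526 before and 0.999 after adjustment. Within clones the Slc17a6-high sibling had more Cbln2 in 4 of 5. The difference was smaller with tissue taken into account: 1.01 (SE 1.44) over sSC cells alone and 1.75 (SE 1.17) with tissue as a covariate.

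The Cbln4 difference had the other sign and did not pass the test. Cbln4 was found at 1 or more in 10 of 19 Gad-high cells (median 8.50, highest 379) and in 5 of 11 Slc17a6-high cells (median 0, highest 227). The difference was -1.16 (SE 1.14, adjusted p = 0.999, limma). All 5 Gad-high dSC cells had it, at 8.99 (A.2), 12.5 (B.1), 22.6 (U.2), 67.7 (O.1) and 112 (O.2). The last 2 are siblings. The 4 Slc17a6-high dSC cells had 0 (D.1), 0 (Q.2), 4.88 (L.2) and 148 (J.1), so these groups overlapped through J.1. In sSC, 5 of 13 Gad-high and 2 of 6 Slc17a6-high cells had it at 1 or more.

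Nxph1 and Cbln1 were found in both sets. Nxph1 was at 1 or more in 9 of 11 Slc17a6-high cells (median 28.5) and 14 of 19 Gad-high cells (median 34.9), with a difference of -0.28 (SE 1.05, interval -2.42 to 1.87). Its split by tissue was uneven. In sSC all 6 Slc17a6-high cells had Nxph1, from 2.96 to 220 with a median of 64.8. In dSC the 4 Slc17a6-high cells had 0.51 (D.1), 0.22 (J.1), 67.2 (L.2) and 5.66 (Q.2). Over sSC cells alone the difference between the sets was 1.89 (SE 1.30), the opposite sign, with an adjusted limma p of 0.995. Cbln1 differed by -0.01 (SE 0.92, interval -1.89 to 1.86) over all clone means. Within clones it was lower in the Slc17a6-high sibling in 4 of 5, and the fit that blocked on clone gave -2.63 (SE 1.34, adjusted limma p = 0.843). That fit gave -1.69 (SE 2.10) for Nxph1. Nxph3 differed by -0.13 (SE 0.45). Of the 6 members tested, 0 were called, against 0.0697% of all genes (10 of 14356, with 664 at an unadjusted p under 0.05). Of those 10, Slc17a6, Gad1 and Gad2 are fixed by how the sets were made.

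**Figure D4:**
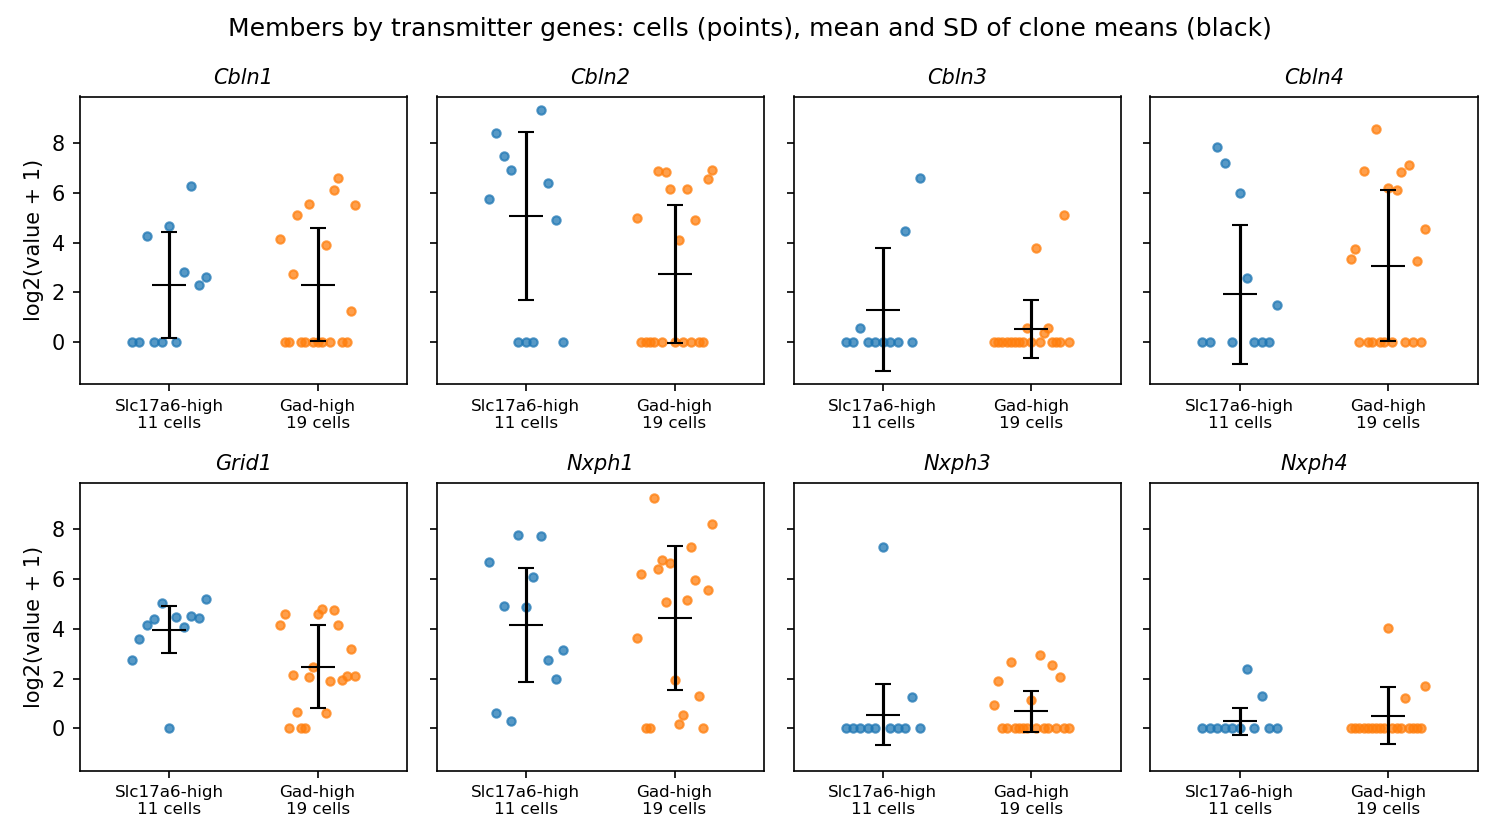
The 8 members in Slc17a6-high (11) and Gad-high (19) cells, as log2(value + 1). Points are cells, and the black bar and whiskers are the mean and SD of clone means (9 and 14 clones). Grid1 has a higher mean and a smaller SD in the Slc17a6-high cells, and every member overlaps between the sets.

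The drivers were compared within sSC, with 11 Fz10-CreER clones and 5 Sox2-CreER clones. None of the 6 members tested was called by limma, where all genes gave 0% called (587 of 14320 at an unadjusted p under 0.05) and the members 0 such p. Cbln2 ran from 0 to 114 with a median of 0 in the 15 Fz10-CreER cells. In the 7 Sox2-CreER cells it ran from 0 to 654 with a median of 11.7. The difference, Fz10-CreER minus Sox2-CreER, was -1.70 (SE 1.29, interval -4.33 to 0.93). It was -0.87 without clone F, -0.91 without clone N and -2.59 without clone H. Cbln1 lay on the other side, at 0.96 (SE 0.93), with medians of 1.35 and 0. Cbln4 differed by 0.79 (SE 1.40), with 0.34 without clone F, H or N and 1.79 without clone Q. Nxph3 differed by 0.43 (SE 0.84), Grid1 by -0.36 (SE 1.17) and Nxph1 by -0.09 (SE 1.32). The adjusted limma p-values all rounded to 1.00. The intervals, with 5 clones on one side, span several log2 units.

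The last comparison asked whether siblings of a clone share organizers. For Nxph1, every clone had at least 1 sibling with a value of 29.2 or more. In 13 of the 18 clones only 1 sibling reached 10, in 5 both did and in 0 neither. Clone N, for example, had 0.11 in N.1 and 215 in N.2. Both of these cells came from sSC, N.1 being Gad-high and N.2 Slc17a6-high. Clone T had 0 in T.1 and 45.7 in T.2, both sSC and Gad-high. In clone D the dSC cell had 0.51 and the PAG cell 615. The sibling correlation of Nxph1 on the log2 scale was -0.68 over 18 pairs, as a description, with each pair entered in both orders. The limma F for clone was 0.27 (adjusted p = 0.998) in the sSC and dSC cells of 16 clones, so no sharing between siblings was detected.

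**Figure D5:**
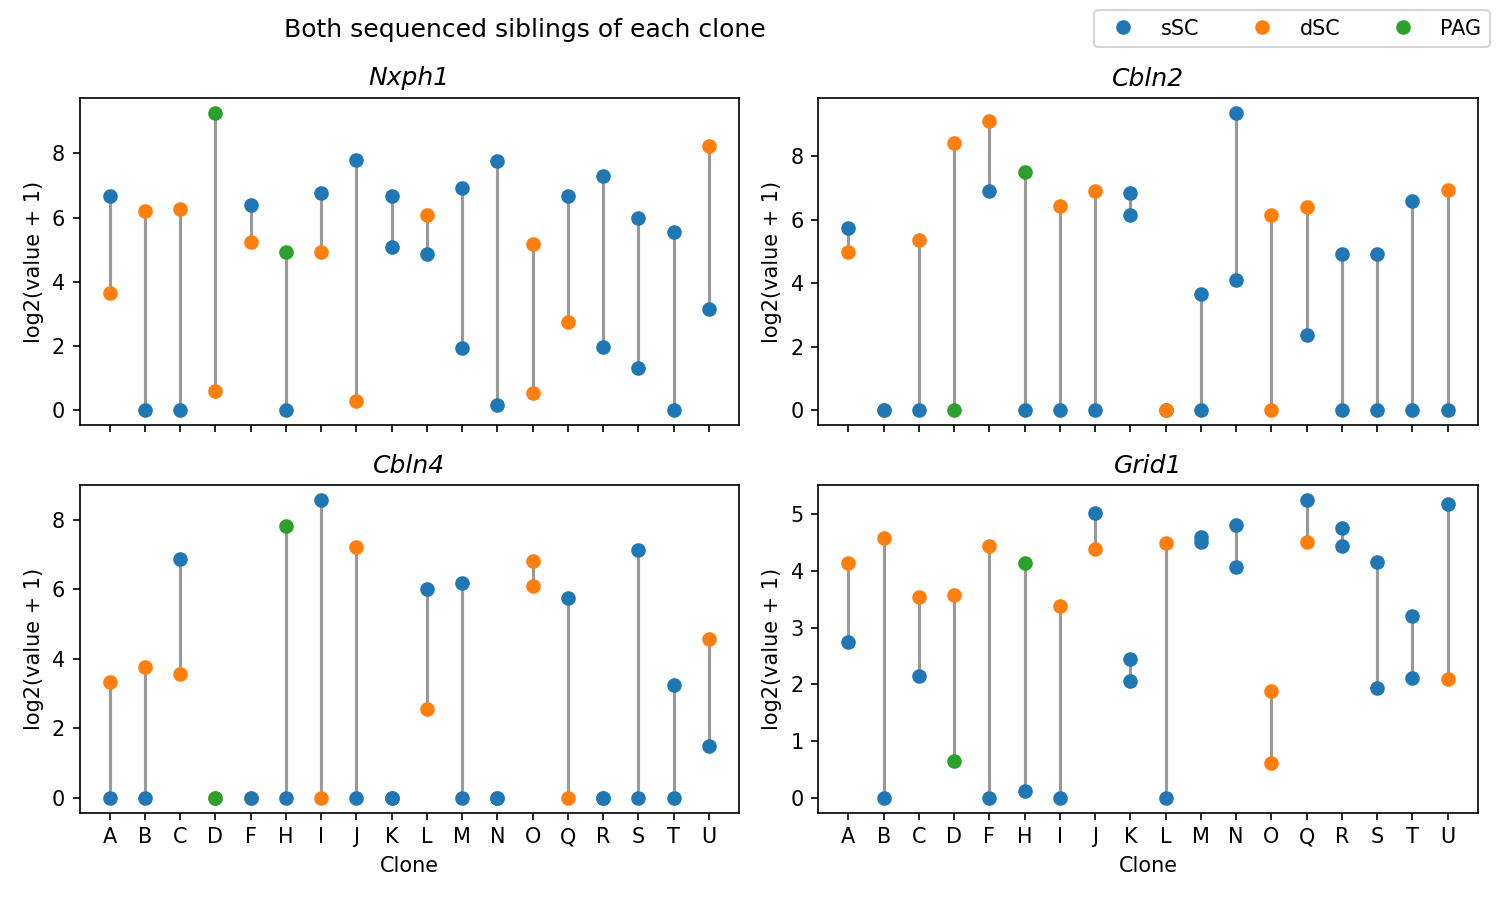
Both siblings of each of the 18 clones, joined by a line, for Nxph1, Cbln2, Cbln4 and Grid1, as log2(value + 1), coloured by tissue. In Nxph1 every clone has a sibling with a value of at least 29.2. In Cbln4 the siblings coincide at 0 in 5 clones (D, F, K, N and R).

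For Cbln2, 4 clones had both siblings at 10 or more (A, F, K and N), 12 had 1 and 2 had neither (B and L). The siblings in clone K were close, at 114 and 69.7, both Gad-high in sSC. In clone N they were at 15.96 and 654. The clone F statistic of Cbln2 was 1.73, with an adjusted limma p of 0.688, the lowest among the members. Cbln4 was at 10 or more in both siblings of 2 clones (C and O), in 1 sibling of 9 and in neither of 7. The O pair, both Gad-high in dSC, had 67.7 and 112. Grid1 was at 10 or more in both siblings of 5 clones, in 1 of 9 and in neither of 4. In clone M the siblings had 21.9 and 23.2 although M.1 had both transmitter markers and M.2 was Gad-high.

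Cbln1 at 10 or more was found in 11 clones, in each of them in 1 sibling alone, and in neither sibling of 7. Cbln3 reached 10 in 1 sibling of 4 clones, Nxph4 in 1 of 3 and Nxph3 in 1 of 1. Of the 7 members tested for clone, 0 were called, with adjusted limma p-values from 0.688 to 0.998. Over all genes 0.0198% were called (3 of 15132, with 1180 at an unadjusted p under 0.05).

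Other genes that were most like a member over the 36 cells are given as a description, since the points share libraries. After Gm2694, Cbln1 was most like Fli1 (r = 0.72) and Myo10 (0.68). Cbln2 was most like Asb6 (0.68), Emd (0.66) and Gm7324 (0.65), and Cbln4 like Slc31a2 (0.61), Gm26865 (0.61) and Gm44210 (0.60). Nxph1 was most like Cdadc1 (0.66), Srp19 (0.64) and Insig2 (0.62). Nxph3, whose value in L.1 lay far above the rest, was most like Col19a1 (0.71), Gm26737 (0.66) and Nfya (0.65), with Spearman values of 0.50, 0.33 and 0.16. Within the family, C1ql2, a secreted relative of the cerebellins, was at 100 or more in 5 cells, all from sSC. Of these, 4 had Cbln4 at 50 or more (I.2, C.2, M.2 and Q.1), among 10 such cells in all. The fifth, S.2, had Cbln4 at 0, while its sibling S.1 had Cbln4 at 139 and C1ql2 at 0. The cuts of 100 and 50 for this pair followed no rule set beforehand. At a cut of 10 for both genes, 5 of the 7 C1ql2 cells had Cbln4, beside 13 of all 36 cells (r = 0.44, Spearman 0.40, 36 cells).

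Partners of these organizers, and their relatives, were taken from 4 lists. Of 6 related family genes 4 could be tested (Nxph2 and C1ql4 were below the filter), of 8 neurexins and presynaptic partners 8, of 11 postsynaptic neurexin ligands 11, and of 10 receptors and scaffolds 9. In each of the tissue, transmitter, driver and clone comparisons 0 genes of any of these lists were called by limma. Those with the smallest p in each list are named as not passing. Between tissues (sSC minus dSC) these were Car10, a neurexin ligand (-1.91, SE 0.67), and Ptprf, a receptor phosphatase (-0.85, SE 0.73). Next came the adhesion molecules Nlgn2 (-1.58, SE 0.71) and Lrrtm2 (-1.67, SE 0.79), then the scaffolds Grip1 (-1.46, SE 0.66) and Grip2 (-1.26, SE 0.63). Among family genes C1ql2 had a difference of 1.85 (SE 1.04).

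Between the transmitter sets (Slc17a6-high minus Gad-high), Nrxn3, a neurexin to which cerebellins bind, differed by -1.94 (SE 0.61, limma p = 0.00339, adjusted p = 0.791). Its clone means were 4.96 ± 2.07 (SD, n = 9) and 6.90 ± 0.71 (SD, n = 14). The C1q relatives C1ql3 (-2.65, SE 0.92) and C1ql2 (-2.57, SE 1.15) had lower levels in Slc17a6-high cells. Ptprd, a receptor phosphatase, had a difference of 1.09 (SE 0.61), Lrrtm4 one of 1.495 (SE 0.76) and Nlgn1 one of 0.86 (SE 0.55). Adgrb3, a receptor for C1ql proteins, differed by 0.81 (SE 0.60) and the netrin receptor Dcc by 0.95 (SE 0.79).

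For the driver comparison the same rule named C1ql1 (1.98, SE 1.52), Ptprs (-1.25, SE 1.24), Car11 (-0.82, SE 1.16), Clstn2 (-1.03, SE 1.28), Lrrtm2 (-0.87, SE 1.19), Grip2 (-1.06, SE 0.71) and Gopc (-1.47, SE 1.19). For clone it named Nrxn3, Ptprs, C1ql3, C1ql2, Clstn2, Nlgn3, Gopc and Grip2. The lowest adjusted limma p among them was 0.510, for Nrxn3 (F = 2.78).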

How the data were processed

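The data are 36 single-neuron libraries of polyadenylated RNA, prepared, per the labels' protocols, with Takara's SMART-Seq Single Cell PLUS chemistry. The submitters' processing notes name STAR 2.7.9a, R 4.0.3 and GRCm39. What is not given in the sources used here is how genes were counted, with which annotation release and strand setting, and the formula. The deposited values are a normalised signal, called exon plus intron TPM by the authors. Every cell sums to 2000000, so they were not treated as plain TPM, which the planned tests had assumed; the tests on a log scale serve both. Read depth is unknown, so no counting interval is given. Symbols came from GENCODE M21 by gene identifier without version (52083 of 55359 genes). Coding sequences and overlaps came from the same annotation (GRCm38).

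Values were taken as log2(value + 1), which understates the difference of low genes, and cells of the same clone within a group were averaged. A gene entered a fit when 25% or more of the cells compared had it at 1 or higher. The fits used limma 3.58.1 under R 4.3.3, with trend and robust set in eBayes. P-values were adjusted over all genes fitted (Benjamini-Hochberg, threshold 0.05). The clone test was limma's moderated F with tissue as covariate. The PAG cells (2) entered no test between tissues. The code was tested on simulated data. The labels do not tie clones to animals, so p-values of the tissue, transmitter and driver fits measure the spread between clone means. The clone test and the fits that blocked on clone measure against the spread within clones instead. The clone letter pairs siblings, by the design. Deviations of the 9 sibling pairs from their tissue means correlated between -0.03 and 0.06, with 0 above 0.1.

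All 8 members were named in every comparison. From 4 lists of partners, genes past the threshold were named, otherwise the 2 of smallest p per list. Some results that this rule or a marker list would give are left out. For members found at 1 or higher in 9 or more cells, the 3 genes with the highest Pearson correlation were named. The members, lists, sets and tests were chosen with earlier results of these data known. Alternatives changed the pseudocount, filter, moderation, scaling, library quality, the replicate block, the set definition and the clones included.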

Additional observations from a re-analysis of the deposited data

Results flagged for a closer look

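In 14 of 62 groups of 4 to 10 clone means (log2(value + 1)), 1 clone lay apart from the rest of its group. The gap required is one that about 1 of 20 groups of normally distributed values would show. The groups overlap in cells, and in most of the 14 the other clones were at or near 0. That rate therefore does not hold here, and the 14 flags are a description. Clone L stood apart in Nxph3 over Slc17a6-high cells (3.64) and over those of sSC (7.28), both from cell L.1. In sSC Slc17a6-high cells it also did so in Cbln4 (6.02). For Cbln3, clones C among Fz10-CreER dSC cells (2.96), Q among Sox2-CreER dSC cells and Slc17a6-high dSC cells (4.45 in both), U among Slc17a6-high sSC cells (6.61) and O among Gad-high dSC cells (0.187) were apart. Clone O stood apart among Sox2-CreER dSC cells in Cbln4 (6.46) and Nxph3 (1.48). Nxph4 had clone M in Gad-high sSC cells (4.02) and clone U in Gad-high dSC cells (1.69). Among the Slc17a6-high dSC clones, Q was high in Cbln1 (6.29), and D was low in Grid1 (3.57, the next at 4.39).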

How the results depend on the processing

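No member passed the threshold in any of 260 refits of a member, where the smallest adjusted limma p was 0.457 (Cbln2 between tissues, clone block). In the tissue, transmitter and driver comparisons, 26 refits had the other sign. The refits of the clone test, also among the 260, give an F, which has no sign to change. Cbln2 kept its direction between tissues (-3.97 to -1.66) and between transmitter sets (1.01 to 3.22), as did Grid1 (-1.96 to -0.30 and 0.63 to 2.08). The cause of the sign changes was not tested. Between tissues, Cbln4 was 0.0105 at a pseudocount of 10 and 0.42 with the replicate block, and Nxph1 was 0.14 at a pseudocount of 10, 0.35 with genes detected as covariate and 0.23 without the library with the fewest genes. Between transmitter sets, Cbln1 was 0.32 at a pseudocount of 0.1, 0.0043 rescaled without the 20 largest genes and 0.51 in sSC alone, within a range of -2.63 (replicate block) to 0.51. Nxph1 was 0.14 at a pseudocount of 0.1, 0.30 at a cut of 200, 0.41 by the sign of the transmitter balance and 1.89 in sSC alone. Nxph3 was 0.11 at a pseudocount of 10, 0.27 at a cut of 50, 1.08 in sSC alone and 0.089 with tissue as covariate. Between drivers, Nxph1 was 0.026 at a pseudocount of 0.1, 0.11 with quantile normalization, 0.46 with genes detected as covariate, 0.33 without the library with the fewest genes, and -1.17 to 0.50 leaving out single Sox2-CreER clones. Grid1 was 0.64 with genes detected as covariate and -1.07 to 0.24 leaving out single clones.

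The number of genes called moved in some fits. Between tissues it was 1 at a pseudocount of 10, 1 with quantile normalization and 1 with the replicate block, against 0. Between transmitter sets it was 6 without the filter, 0 with the replicate block (842 at an unadjusted p under 0.05, 4 residual degrees of freedom) and 2 in sSC alone, against 10. Between drivers it was 1 at a pseudocount of 10 and 0 to 5 leaving out single clones (5 without clone H, 1 without clone F), against 0. For clone it was 6 at a pseudocount of 0.1, 60 without the filter and 1 without trend and robust, against 3. By Spearman correlation, 2 of the 3 genes named for Cbln2, 1 for Grid1 and 0 each for Cbln4, Nxph1 and Nxph3 stayed among the top 3, and for Nxph1 2 of 3 without the library with the fewest genes. Depth is unknown, so values at 0 limit Cbln3, Nxph3 and Nxph4 most.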
